A study of Rattus norvegicus with 96 samples.

Results

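Gad1 (ENSRNOG00000000007), Slc17a6 (ENSRNOG00000016147) and Calb1 (ENSRNOG00000007456) are 3 of the 17637 genes in the count table of a rat study of nicotine (NIC) sensitization (SST), chosen by their identifiers as 1 marker gene each of GABA neurons, glutamate neurons and calbindin neurons. The rats were F1 offspring of the inbred strains F344 and BN, bred in both cross directions, and no animal was a knockout or carried a transgene. Male and female rats received NIC at 0.4 mg/kg or saline (SAL) at 1.0 ml/kg once daily for 4 days, and tissue was taken without a challenge dose, on day 17 by the labels, although the study's schematic can be read as a later day. Bulk RNA was sequenced from the ventral tegmental area (VTA), the core of the nucleus accumbens (NAc core) and its shell (NAc shell) of 32 rats. The 12 groups of region, sex and treatment held 8 rats each, except male VTA SAL and female NAc core NIC with 7, so 94 libraries were analysed. Each region is a piece of dissected tissue with every cell type in it, and a lower value can come from fewer cells of a type or from less RNA per cell, which cannot be told apart here.

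Gad1 encodes GAD67, the enzyme that makes the inhibitory transmitter GABA from glutamate. Slc17a6 encodes VGLUT2, the transporter that loads glutamate into synaptic vesicles in many subcortical neurons. Calb1 encodes calbindin, a cytosolic EF-hand protein that binds calcium and is present in many striatal projection neurons and in some dopaminergic neurons of the midbrain. The VTA is known for its dopaminergic neurons and also holds GABA and glutamate neurons, while the principal neurons of the NAc are GABA projection neurons and its glutamate comes mostly from axons whose cell bodies lie elsewhere.

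Levels are given as CPM, counts scaled to library totals that were adjusted by edgeR's TMM normalization factors. CPM were not corrected for gene length and are therefore compared within a gene only. Library totals ran from 15868529 to 27736905 counts, and all 3 genes had reads in every library, with at least 58 for Slc17a6, 580 for Calb1 and 3725 for Gad1. The labelled tissues matched their marker genes in most libraries. Th, the rate-limiting enzyme of dopamine synthesis, had a median of 711 CPM in the VTA and at most 3.89 CPM in the NAc. Drd1, a dopamine receptor of striatal projection neurons, had a median of 92.3 CPM in NAc core, 82.6 CPM in NAc shell and at most 4.49 CPM in the VTA. A set of 3 libraries stood apart from the others of their region in the study's own clustering. One was female VTA NIC 2, with 17.9 CPM of Th, and the others were male NAc core SAL 1 and male NAc shell SAL 1, with 9.28 and 5.09 CPM of Drd1, the lowest of their groups. They were kept, and results without them are given where they differ.

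The 3 genes had different regional patterns. Gad1 was lowest in the VTA, higher in NAc core and highest in NAc shell. Slc17a6 was highest in the VTA, where each library lay above every NAc library, and Calb1 was highest in NAc core, with lower average levels in the VTA and NAc shell. The study asked what NIC does in each region and sex, so the regional levels are the baseline on which the NIC comparisons rest.

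Gad1 ranged from 178 to 393 CPM in the VTA, with a median of 299 and a mean of 296 ± 52.5 (SD, n = 31). In NAc core it ranged from 218 to 570 CPM, with a median of 374 and a mean of 383 ± 108 (SD, n = 31). In NAc shell it ranged from 206 to 747 CPM, with a median of 483 and a mean of 505 ± 133 (SD, n = 32). The 3 ranges overlapped, and the lowest shell library, male NAc shell SAL 1, lay within the VTA range. Ordered by mean, the 12 groups ran from 602 CPM in female NAc shell NIC to 271 CPM in male VTA NIC, and each group's range overlapped that of the next in the order.

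Slc17a6 ranged from 43.3 to 197 CPM in the VTA, with a median of 121 and a mean of 121 ± 34.9 (SD, n = 31). In NAc core it ranged from 3.47 to 16.7 CPM, with a median of 7.91 and a mean of 8.23 ± 3.06 (SD, n = 31). In NAc shell it ranged from 3.48 to 30.5 CPM, with a median of 8.88 and a mean of 10.8 ± 6.58 (SD, n = 32). No NAc library reached the lowest VTA library, male VTA NIC 11. In the order of the 12 groups, the 4 VTA groups came first, from 136 to 112 CPM, and the single gap between neighbouring groups lay between male VTA SAL and female NAc shell NIC at 18.6 CPM. The other 7 NAc groups had means from 6.57 to 9.49 CPM and overlapped.

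Calb1 ranged from 65.2 to 171 CPM in NAc core, with a median of 117 and a mean of 114 ± 27.1 (SD, n = 31). In the VTA it ranged from 30.4 to 99.6 CPM, with a median of 65.1 and a mean of 64.2 ± 19.2 (SD, n = 31). In NAc shell it ranged from 27.8 to 98.9 CPM, with a median of 63.6 and a mean of 61.5 ± 18.2 (SD, n = 32). The 4 core groups held the first 4 places in the order, from 128 CPM in female NIC to 98.1 CPM in male NIC, and the female shell groups were last, at 50.7 and 46.9 CPM, with overlap between all neighbours.

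**Figure D1:**
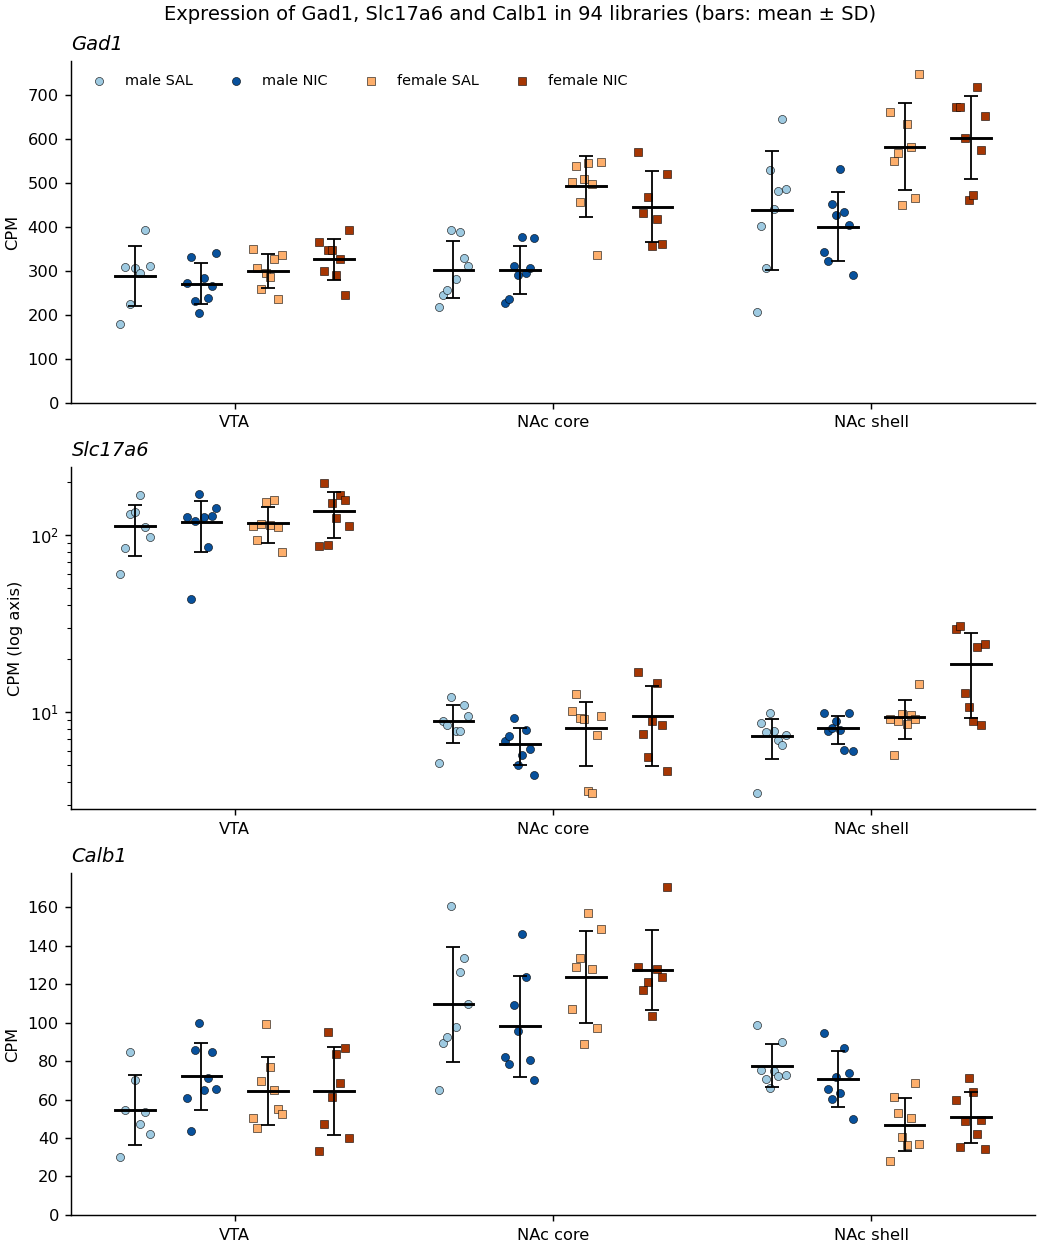
Level of Gad1, Slc17a6 and Calb1 in each of the 94 libraries, in CPM, by region, sex and treatment (the axis for Slc17a6 is a log axis), with bars at the mean ± SD of each group. All VTA libraries lie above all NAc libraries for Slc17a6, with the lowest at 43.3 CPM against a highest NAc value of 30.5 CPM, while the regions overlap for Gad1 and Calb1.

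The regional differences were tested with edgeR's quasi-likelihood test over all 94 libraries, with Benjamini-Hochberg adjustment over the 16879 genes tested. Between VTA and NAc core, all 3 genes passed an adjusted p of 0.05, as did 81.6% of all tested genes, so passing is the usual outcome between these regions. Slc17a6 was higher in the VTA by 3.88 on the log2 scale (SE 0.131, adjusted p = 3.94e-45). Calb1 was lower in the VTA by a log2 difference of -0.84 (SE 0.0934, adjusted p = 1.19e-13), and Gad1 by -0.35 (SE 0.0716, adjusted p = 8.86e-06). The libraries of these regions did not overlap for Slc17a6, a state found for 9.89% of the tested genes between VTA and NAc core and for 6.58% between VTA and NAc shell.

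Between VTA and NAc shell, 2 of the 3 genes passed, against 80.8% of all tested genes. The Slc17a6 difference was 3.58 (SE 0.126, adjusted p = 1.37e-43) and the Gad1 difference was -0.75 (SE 0.0714, adjusted p = 1.37e-16). Calb1 differed by 0.08 (SE 0.0926, adjusted p = 0.419), less than its spread between rats. For NAc core against NAc shell, 32.3% of all tested genes passed, and Calb1 and Gad1 were among them in opposite directions. Calb1 was higher in the core by 0.92 (SE 0.0927, adjusted p = 8.08e-14) and Gad1 was lower in the core by -0.40 (SE 0.0710, adjusted p = 2.93e-06). Slc17a6 differed by -0.30 (SE 0.126, adjusted p = 0.0561), and it was 0.03 in the SAL groups alone (adjusted p = 0.915).

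Because each rat gave tissue from several regions, the differences could also be read rat by rat. Slc17a6 was higher in the VTA in 30 of 30 rats against NAc core and in 31 of 31 rats against NAc shell. Gad1 was lower in the VTA than in NAc core in 24 of 30 rats, lower in the VTA than in NAc shell in 29 of 31, and lower in NAc core than in NAc shell in 27 of 31. Calb1 was higher in NAc core than in the VTA in 27 of 30 rats and higher in NAc core than in NAc shell in 29 of 31. Between the VTA and NAc shell, Calb1 was higher in the VTA in 18 rats and lower in 13.

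The rats that departed from the general order were of both sexes for Gad1 in core against shell (2 males and 2 females) and for Calb1 in VTA against core (2 males and 1 female). For Gad1 in VTA against core, the 6 rats with more in the VTA were all males, so 9 of 15 males and 15 of 15 females had the lower VTA level. The mean log2 difference within rats was -0.13 ± 0.37 (SD, n = 15) in males and -0.60 ± 0.22 (SD, n = 15) in females. For Calb1 between VTA and NAc shell, 6 of 15 males but 12 of 16 females had the higher level in the VTA, with means of -0.26 ± 0.61 (SD, n = 15) and 0.38 ± 0.59 (SD, n = 16). Calb1 was higher in NAc core than in NAc shell in 14 of 16 males and in 15 of 15 females, with means of 0.46 ± 0.47 (SD, n = 16) and 1.42 ± 0.55 (SD, n = 15).

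**Figure D2:**
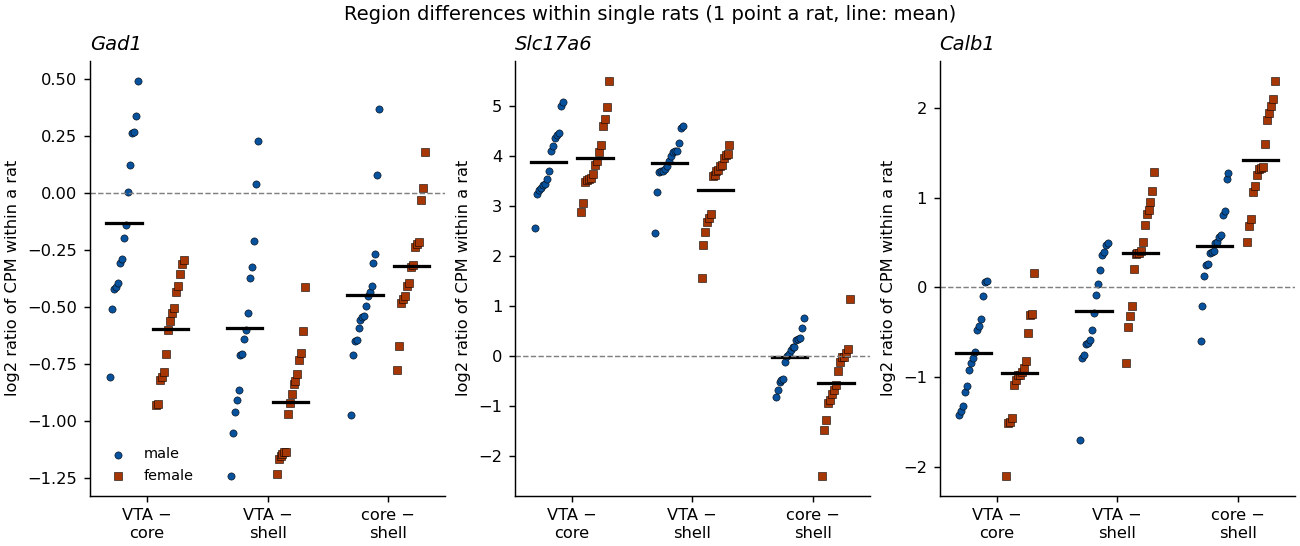
Difference between regions within single rats for Gad1, Slc17a6 and Calb1, as the log2 ratio of CPM, with 1 point a rat, males as circles, females as squares and a line at the mean. Every Slc17a6 point against the VTA is above 0, while 6 male and no female points for Gad1 are above 0 in VTA against NAc core, and the Calb1 points of females sit higher than those of males in core against shell, with means of 1.42 and 0.46.

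The difference between the sexes was then tested as the male region difference minus the female region difference in edgeR's quasi-likelihood fit, a contrast added after the first results were seen. For VTA against NAc core, 11.3% of all tested genes passed an adjusted p of 0.05, and Gad1 was one of them, at 0.47 (SE 0.143, adjusted p = 0.0214). For VTA against NAc shell, 6.71% of genes passed, and Calb1 differed by -0.64 (SE 0.185, adjusted p = 0.0230). For NAc core against NAc shell, 0.397% of genes passed, and Calb1 was again among them, at -0.88 (SE 0.184, adjusted p = 0.0137). Permuting sex over the differences of single rats gave p-values, adjusted over 9 such tests, of 0.000945 for the Gad1 difference, 0.0162 for Calb1 between VTA and NAc shell and 0.00036 for Calb1 between core and shell. Gad1 between VTA and NAc shell differed by 0.34 (adjusted p = 0.134, and 0.0425 with the rat as a block), and its permutation test over rats gave an adjusted p of 0.0220. The Slc17a6 differences between the sexes were 0.65 against NAc shell (adjusted p = 0.0801) and 0.57 between core and shell (adjusted p = 0.340). Without the 4 NAc libraries with Avp over 2 CPM, described below, the Calb1 differences were -0.53 (adjusted p = 0.178) and -0.78 (adjusted p = 0.169), and neither passed.

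Males and females were next compared within each region. All males carried one box label and all females another, and nearly every prep batch, as the labels name it, held a single sex, so sex, box and batch cannot be told apart. None of the 3 genes passed in the VTA. Gad1 was lower in males in both parts of the NAc, and in its shell Calb1 was higher in males and Slc17a6 lower.

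Gad1 in NAc core ranged from 218 to 392 CPM in males, with a median of 299.5, and from 336 to 570 CPM in females, with a median of 497. The sexes overlapped only at the upper end of the males and the lower end of the females. The difference, male minus female, was -0.64 (SE 0.0888, adjusted p = 4.10e-06), in a region where 32.9% of all tested genes passed. In NAc shell Gad1 ranged from 206 to 644 CPM in males, with a median of 429, and from 449 to 747 CPM in females, with a median of 590. There the difference was -0.50 (SE 0.110, adjusted p = 0.00177), and 21% of genes passed. In the VTA, where 2.33% of genes passed, Gad1 had a mean of 279 ± 56.8 CPM in males (SD, n = 15) and 313 ± 43.7 CPM in females (SD, n = 16), a difference of -0.17 (SE 0.0888, adjusted p = 0.299).

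Slc17a6 in NAc shell ranged from 3.48 to 9.89 CPM in males, with a median of 7.82, and from 5.74 to 30.5 CPM in females, with a median of 9.72. The high end of the females was made by the 4 NIC libraries with Avp over 2 CPM. The difference was -0.79 (SE 0.180, adjusted p = 0.00232) with them and -0.35 (SE 0.124, adjusted p = 0.0600) without them. In NAc core the difference was -0.20 (SE 0.183, adjusted p = 0.430), and in the VTA it was -0.14 (SE 0.152, adjusted p = 0.647).

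Calb1 in NAc shell ranged from 49.7 to 98.9 CPM in males, with a median of 72.7, and from 27.8 to 71.1 CPM in females, with a median of 49.2. Most males lay above most females, and the difference was 0.60 (SE 0.113, adjusted p = 0.000424). In NAc core the direction was the other one, with a mean of 104 ± 27.8 CPM in males (SD, n = 16) and 125 ± 21.9 CPM in females (SD, n = 15). That difference was -0.28 (SE 0.110, adjusted p = 0.0458), and it did not pass without the libraries that stand apart (-0.23, adjusted p = 0.0950). In the VTA the means were 63.9 and 64.4 CPM, a difference of -0.03 (SE 0.153, adjusted p = 0.935).

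Some marker genes moved with these differences between the sexes. For the striatal projection neuron list (8 of 10 genes matched, none at 0 in all libraries), the summed level in NAc core ran from 344 to 3781 CPM in male SAL and from 683 to 3548 CPM in male NIC, against 2543 to 5310 CPM in female SAL and 2310 to 4978 CPM in female NIC. Drd1 was lower in males in NAc core by -0.72 (adjusted p = 0.0125). In NAc shell the striatal genes did not pass, with -0.14 for Drd1 (adjusted p = 0.660), -0.06 for Drd2 (adjusted p = 0.852) and 0.07 for Ppp1r1b (adjusted p = 0.811). Nrgn, a postsynaptic calmodulin-binding protein abundant in forebrain projection neurons, was higher in males by 0.45 in NAc core (adjusted p = 0.00401) and by 0.79 in NAc shell (adjusted p = 0.00426). Slc32a1, the vesicular GABA transporter, was lower in males by -0.64 in NAc core (adjusted p = 0.000324) and by -0.42 in NAc shell (adjusted p = 0.0391). Other lists differed too. The cholinergic neuron list (3 of 4 matched) had median sums of 14.5 and 15.1 CPM after SAL and NIC in male NAc core against 31.5 and 29.0 CPM in females, and of 27.7 and 20.4 CPM in male NAc shell against 51.0 and 59.9 CPM in females. The striatal GABA interneuron list (5 of 7 matched) went the other way, with median sums of 789 and 678 CPM in male NAc core against 467 and 516 CPM in females, and of 592 and 685 CPM in male NAc shell against 390 and 330.4 CPM in females. The septal, preoptic and hypothalamic list had median sums of 60.8 and 78.2 CPM in male NAc core against 129 and 92.2 CPM in females, and of 178 and 157 CPM in male NAc shell against 224 and 218 CPM in females. The part of dissection or cell makeup in the differences between the sexes was not tested. One prep batch, L, held both sexes. In NAc shell it had 1 library of each, with 342 CPM of Gad1 in the male and 580 CPM in the female, 94.5 and 50.5 CPM of Calb1, and 9.84 and 9.64 CPM of Slc17a6. In the VTA it had 2 males and 3 females, and the male minus female values were 0.12 for Gad1, -0.55 for Slc17a6 and -0.75 for Calb1 (exact permutation p = 0.4, 0.6 and 0.1, where 0.1 is the smallest p of 2 against 3). With prep batch as a covariate the NAc shell differences were -0.32 for Gad1, -0.25 for Slc17a6 and 0.99 for Calb1, none past the threshold, and for NAc core no such fit could be estimated.

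The comparison the study was made for is NIC against SAL, in each sex and region. No gene of the 16879 passed an adjusted p of 0.05 in any of the 6 comparisons with edgeR's quasi-likelihood test, so members were read at the study's own threshold, an unadjusted p of 0.05, beside the share of all genes that pass it. Of the 18 values of the 3 genes, 2 passed, both of Slc17a6, beside 2.46% to 10.1% of all genes in the 6 comparisons. They were a lower level after NIC in male NAc core and a higher level after NIC in female NAc shell. Gad1 and Calb1 passed in none of the 6 comparisons each in this fit. Calb1 in male VTA, at 0.40 (unadjusted p = 0.0530), passed with DESeq2's test (unadjusted p = 0.0349), the tool named in the study's methods, and with all 12 groups in 1 edgeR fit (unadjusted p = 0.0392). In that fit of 12 groups Slc17a6 in male NAc core did not pass (-0.43, unadjusted p = 0.0933).

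Slc17a6 in male NAc core ranged from 5.13 to 12.2 CPM after SAL, with a median of 8.67, and from 4.39 to 9.20 CPM after NIC, with a median of 6.54. The groups overlapped over most of their range, although 7 of 8 SAL libraries lay above the NIC median. The difference was -0.43 (SE 0.167, unadjusted p = 0.0182, adjusted p = 0.448), in a comparison where 9.83% of all genes passed unadjusted. Permuting the treatment over the libraries, an exact two-sided test of the log2 CPM, gave p = 0.0371, or 0.334 adjusted over the 18 values. The difference was -0.56 with prep batch as a covariate (unadjusted p = 0.0716), and within batch C, with 4 NIC and 2 SAL libraries, it was -0.61 (exact permutation p = 0.2, smallest possible 0.0667). Nrgn differed in the same direction in this comparison, at -0.35 (unadjusted p = 0.0248).

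Slc17a6 in female NAc shell ranged from 5.74 to 14.3 CPM after SAL, with a median of 9.10, and from 8.48 to 30.5 CPM after NIC, with a median of 18.1. The NIC group fell into 2 sets without overlap, since rats 1, 2, 6 and 8 had 29.4, 30.5, 23.3 and 24.3 CPM and rats 3, 4, 5 and 7 had 12.8, 10.7, 8.91 and 8.48 CPM. The first 4 lay above every SAL library and the other 4 within the SAL range. Over the whole group the difference was 1.00 (SE 0.267, unadjusted p = 0.00142, adjusted p = 0.466), in a comparison where 10.1% of all genes passed unadjusted. The same exact permutation test gave p = 0.0207, or 0.334 adjusted over the 18 values.

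The 4 high libraries were also the only NAc libraries with more than 2 CPM of Avp, the gene of vasopressin, a neuropeptide made in hypothalamic and nearby neurons. They held 3.57 to 13.3 CPM of Avp, against at most 1.39 CPM in the 59 other NAc libraries, which include the other 4 NIC libraries of the group with at most 0.223 CPM and the female shell SAL libraries with at most 1.097 CPM. They differed in other ways too. Gad1 was at 651 to 717 CPM in the 4 libraries and at 461 to 600.4 CPM in the other 4, with 449 to 747 CPM after SAL, so it separated the NIC libraries from each other but not from SAL. Tcf7l2, which makes 98.5% of the sum of the 2 matched genes (of 8) of the midbrain and diencephalic glutamate neuron list in NAc shell, was at 20.2 to 28.6 CPM in the 4 libraries, 17.4 to 19.8 CPM in the other 4 and 15.7 to 20.3 CPM after SAL. Zic1, a transcription factor of septal and other forebrain neurons, was at 47.1 to 70.6 CPM in the 4 libraries at 27.4 to 38.1 CPM in the other 4 and at 25.7 to 48.3 CPM after SAL. The striatal projection neuron list summed to 1307 to 2060 CPM against 2005 to 2835 CPM in the other 4 and 2143 to 2970 CPM after SAL. The matched cortical projection neuron genes, Nrgn and Cux2 (2 of 8 listed), summed to 408 to 618 CPM against 711 to 1373 CPM and 535 to 1193 CPM after SAL. Over the whole comparison Drd1 was lower after NIC by -0.30 (unadjusted p = 0.0167) and Ppp1r1b, the DARPP-32 gene of striatal projection neurons, by -0.38 (unadjusted p = 0.0137). The septal, preoptic and hypothalamic list, which includes Avp and Zic1 (10 of 12 genes, none at 0 in all libraries), summed to 204 to 242 CPM in the 4 libraries, 161 to 220 CPM in the other 4 and 171 to 261 CPM after SAL. The 4 libraries came from prep batches G, G, I and J, and batches I and J also held libraries of the other 4.

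**Figure D3:**
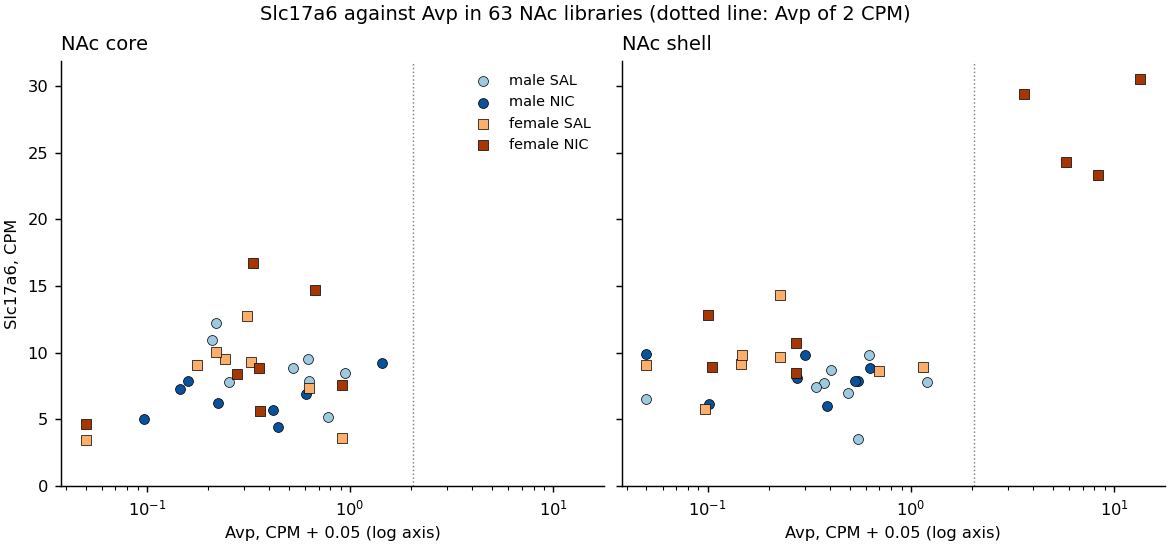
Slc17a6 against Avp in the 63 NAc libraries, both in CPM (Avp plus 0.05 on a log axis), with colours for sex and treatment and a dotted line at an Avp of 2 CPM. The 4 points to the right of the line are female NAc shell NIC libraries with 23.3 to 30.5 CPM of Slc17a6, and all 59 other libraries are at or below 16.7 CPM.

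Leaving out these 4 libraries, a choice made after their Slc17a6 and Avp values were seen, gave a difference of 0.13 (SE 0.181, unadjusted p = 0.492). Because they held the highest Slc17a6 levels of all NAc libraries, a smaller difference had to follow. Avp itself differed by 3.75 between NIC and SAL in female shell (unadjusted p = 0.00125, adjusted p = 0.466). With prep batch as a covariate the Slc17a6 difference was 0.51 (SE 0.450, unadjusted p = 0.276), and within batch J, with 2 libraries a group, it was 0.33 (exact permutation p = 1, smallest possible 0.333). The part of dissection in the 4 high values was not tested.

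The remaining 16 values did not pass, and their sizes were mostly within the spread between rats. Calb1 in male VTA ranged from 30.4 to 84.9 CPM after SAL, with a median of 53.3, and from 43.7 to 99.6 CPM after NIC, with a median of 68.4. NIC libraries tended to be higher but the groups overlapped widely, and the difference was 0.40 (SE 0.193, unadjusted p = 0.0530, exact permutation p = 0.0738), in a comparison where 5.62% of genes passed unadjusted. The other Calb1 values ran from -0.16 in male NAc core to 0.12 in female NAc shell. The Gad1 values ran from -0.14 in female NAc core to 0.12 in female VTA. The other Slc17a6 values were 0.08 in male VTA, 0.21 in female VTA, 0.14 in male NAc shell and 0.22 in female NAc core. In the comparisons not yet named, 2.46% of genes passed unadjusted in male NAc shell, 9.24% in female VTA and 6.45% in female NAc core.

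**Figure D4:**
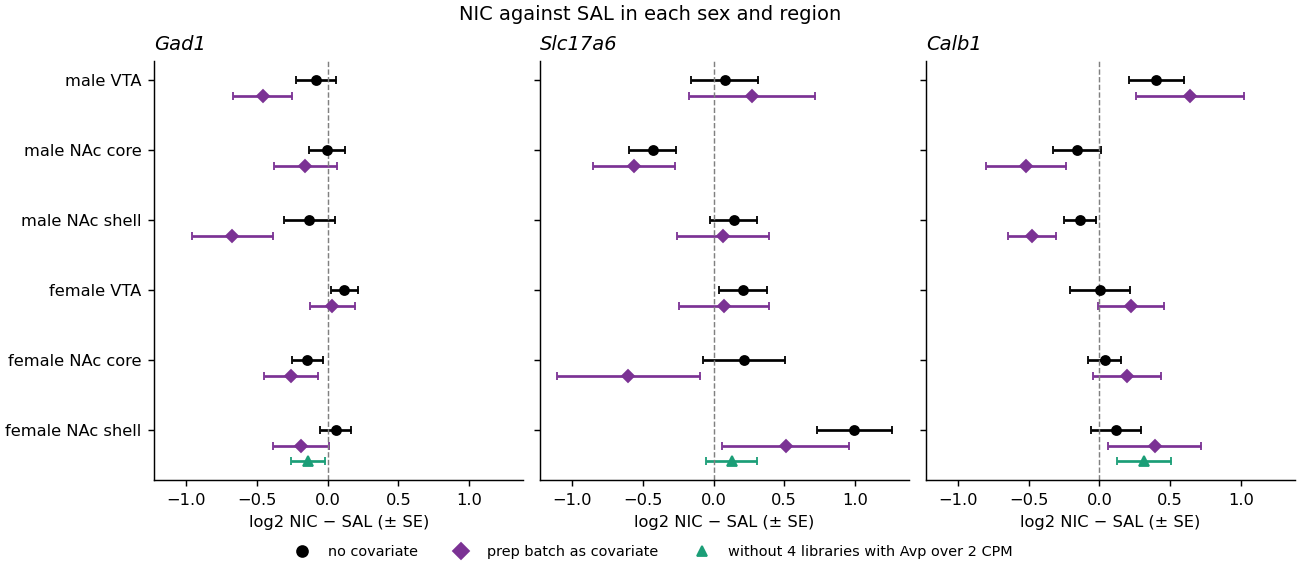
Log2 difference between NIC and SAL for Gad1, Slc17a6 and Calb1 in each sex and region, with bars of ± 1 SE, fitted without a covariate, with prep batch as a covariate and, for female NAc shell, without the 4 libraries with Avp over 2 CPM. The Slc17a6 value of female NAc shell is 1.00 without a covariate, 0.51 with prep batch and 0.13 without the 4 libraries.

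Several of these values changed with prep batch, of which NIC and SAL rats of a sex shared only 1 or 2 in each region. With batch as a covariate, Gad1 was lower after NIC in male VTA (-0.46, unadjusted p = 0.0476) and in male NAc shell (-0.67, unadjusted p = 0.0343), and Calb1 was lower in male NAc shell (-0.48, unadjusted p = 0.0146). Without the covariate those values were -0.08, -0.13 and -0.14. Slc17a6 in female NAc core turned from 0.22 to -0.60 (unadjusted p = 0.255) with the covariate, and within batch J, with 2 libraries a group, it was -0.65 (exact permutation p = 0.333, the smallest possible). Within batch C of male NAc shell, the 3 NIC libraries had 289 to 452 CPM of Gad1 and the 2 SAL libraries 485 and 644 CPM. Calb1 in the same libraries was at 49.7 to 65.5 CPM after NIC and at 72.9 and 90.1 CPM after SAL. Neither gene overlapped within the batch (exact permutation p = 0.2 and 0.1, with 0.1 the smallest possible). Calb1 in male NAc core was -0.16 without the covariate and -0.52 with it (unadjusted p = 0.0866). Within batch C of male NAc core, the 4 NIC libraries had 69.9 to 109.1 CPM of Calb1 and the 2 SAL libraries 109.6 and 133 CPM, a difference of -0.53 (exact permutation p = 0.0667, the smallest possible).

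The NIC effects of the sexes were compared through the interaction of sex and treatment in edgeR's quasi-likelihood fit, as male effect minus female effect. No gene passed after adjustment in any region. Unadjusted, the shares of all genes that passed were 11% for VTA, 8.89% for core and 8.07% for shell, and of the 9 values of the 3 genes the only one to pass in the fit without covariates was Slc17a6 in NAc shell, at -0.85 (SE 0.329, unadjusted p = 0.0147, adjusted p = 0.579). It was 0.02 (unadjusted p = 0.953) without the 4 libraries with Avp over 2 CPM and -0.44 with prep batch as a covariate. Those 4 libraries were also the highest NAc libraries in Slc17a6, so a smaller difference had to follow from leaving them out. In NAc core the Slc17a6 value was -0.64 (SE 0.354, unadjusted p = 0.0777). It passed at -0.74 (unadjusted p = 0.0420) without the libraries that stand apart and was 0.046 (unadjusted p = 0.940) with prep batch as a covariate. The Gad1 values were -0.21, 0.14 and -0.19 and the Calb1 values 0.39, -0.20 and -0.25 for VTA, core and shell. With prep batch as a covariate the Calb1 value in NAc shell was -0.87 and passed (unadjusted p = 0.0345).

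The 3 genes were then followed together through the rats of a region, after each group's mean was removed, to see whether a rat high in one gene was also high in another. Values were log2(CPM + 0.5), p-values came from 100000 permutations within groups, and 9 relations were computed. In NAc core, Gad1 and Calb1 were higher in the same rats (Pearson r = 0.64, Spearman rho = 0.63, permutation p = 0.00043 for r and 0.00057 for rho, adjusted 0.00387 and 0.00513, n = 31), and r was 0.55 without the 2 libraries farthest from the Gad1 median and 0.62 after centring on prep batch. In NAc shell the same pair had the opposite sign, with r = -0.35 and rho = -0.42 (permutation p = 0.0258 and 0.0163, adjusted 0.0554 and 0.0379, n = 32), and r was -0.38 without the 2 farthest libraries and -0.28 after centring on prep batch. In the VTA the pair had r = -0.26 and rho = -0.41 (permutation p = 0.190 and 0.0279, adjusted 0.286 and 0.0478, n = 31), and r was -0.48 without the 2 farthest libraries and -0.32 after centring on prep batch. Calbindin and GAD67 transcripts thus went together between rats in the core, and the sign was negative in the other regions, where r missed the threshold after adjustment and rho passed it. The difference in sign between regions was not tested.

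Slc17a6 and Calb1 were higher in the same rats in the VTA, with r = 0.51 and rho = 0.46 (permutation p = 0.00485 and 0.0168, adjusted 0.0145 and 0.0379, n = 31). That relation rested on male VTA NIC 11 and male VTA SAL 1, since r was 0.33 without them (permutation p = 0.112), although it was 0.66 after centring on prep batch. In NAc shell Gad1 and Slc17a6 were higher in the same rats, with r = 0.51 and rho = 0.43 (permutation p = 0.00177 and 0.0151, adjusted 0.00796 and 0.0379, n = 32), and r was 0.46 without the 2 farthest libraries, 0.43 after centring on prep batch and 0.48 without the libraries with Avp over 2 CPM. Slc17a6 and Calb1 in NAc shell had r = -0.42 and rho = -0.41 (permutation p = 0.0308 and 0.0318, adjusted 0.0554 and 0.0478, n = 32), with r = -0.41 without the 2 farthest libraries (permutation p = 0.0650), -0.39 after centring on prep batch and -0.29 without the libraries with Avp over 2 CPM. The other 3 relations had r from -0.11 to 0.10 and did not pass. All libraries of a region come from hand-dissected tissue, and the part of dissection in these relations was not tested.

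Marker lists of cell types were set beside the members in the same way, as the log2 of a list's summed CPM, in 63 relations added after the first results were seen. A list's sum can rest mostly on 1 or 2 genes, which are named where it does. Here the 2 farthest libraries are those farthest from the median of the list's sum, so they differ from list to list and region to region. The list with the largest r for Gad1 differed between the regions. In the VTA it varied with the midbrain GABA neuron lineage list, the transcription factors Gata2, Gata3, Tal1, Sox14, Otx2 and Nkx2-2 (6 of 6 matched, summing to 39.97 to 97.4 CPM), with r = 0.75 and rho = 0.74 (permutation p = 1e-05, the smallest the test can give, and 2.00e-05, adjusted 0.000157 and 0.000315, n = 31) and r = 0.72 both without the 2 farthest libraries and after centring on prep batch. In NAc core it followed the striatal projection neuron list, with r = 0.77 and rho = 0.75 (permutation p = 1e-05, adjusted 0.000157 and 0.00021, n = 31) and r = 0.74 without the 2 farthest libraries and 0.79 after centring on prep batch. The same list had r = 0.69 and rho = 0.45 with Gad1 in NAc shell (permutation p = 0.00183 and 0.0152, adjusted 0.00961 and 0.0503, n = 32), where r was 0.37 without the 2 farthest libraries and 0.70 after centring on prep batch.

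In NAc shell Gad1 ran against Nrgn and Cux2, of whose sum Nrgn makes 93.1% there, 96.9% in the core and 85.9% in the VTA, with r = -0.89 and rho = -0.89 (permutation p = 1e-05, adjusted 0.000157 and 0.00021, n = 32) and r = -0.85 without the 2 farthest libraries and -0.92 after centring on prep batch. The lowest Gad1 library of the shell, male NAc shell SAL 1 with 206 CPM, had the highest sum of these genes, 3011 CPM. Gad1 in the shell also went with the septal, preoptic and hypothalamic list (10 of 12 matched, with Cartpt at 50.9% and Zic1 at 19.1% of the sum), with r = 0.93 and rho = 0.88 (permutation p = 1e-05, adjusted 0.000157 and 0.00021, n = 32), and r was 0.90 without the 2 farthest libraries and 0.93 after centring on prep batch. In NAc core Gad1 had r = -0.44 with Nrgn and Cux2 (rho = -0.39, permutation p = 0.0163 and 0.0335, adjusted 0.0446 and 0.0880, n = 31), and r was -0.49 without the 2 farthest libraries and -0.43 after centring on prep batch. There it also had r = 0.58 with the septal, preoptic and hypothalamic list (rho = 0.52, permutation p = 0.00106 and 0.00591, adjusted 0.00687 and 0.0235, n = 31) and r = -0.56 with the dopaminergic neuron list (rho = -0.53, permutation p = 0.00109 and 0.0032, adjusted 0.00687 and 0.0168, n = 31). In NAc core that list holds hardly any dopaminergic transcript, with Foxa2 at 0 in all libraries, Slc6a3 at no more than 0.920 CPM and Th at no more than 3.89 CPM, and Nr4a2 alone makes 81.0% of its sum. In NAc shell, where Foxa2 is also at 0, Nr4a2 makes 47.5% and Ddc 36.3%. Without the 2 farthest libraries the r of Gad1 with the septal and dopaminergic lists in NAc core were 0.50 and -0.45, and after centring on prep batch 0.49 and -0.56. In the VTA the septal, preoptic and hypothalamic list had the other sign with Gad1 (r = -0.54, rho = -0.53, permutation p = 0.00531 and 0.00464, adjusted 0.0190 and 0.0209, n = 31), but r was -0.35 without female VTA NIC 7 and male VTA SAL 7 (permutation p = 0.0858) and -0.67 after centring on prep batch. Gad1 went with the oligodendrocyte list in the VTA (r = 0.45, rho = 0.54, permutation p = 0.00725 and 0.00241, adjusted 0.0240 and 0.0138, n = 31), with r = 0.49 without the 2 farthest libraries and 0.57 after centring on prep batch. In NAc shell the r of Gad1 with the oligodendrocyte list (0.54, permutation p = 0.00854, adjusted 0.0269, rho = 0.40, permutation p = 0.0326, n = 32) and with the dopaminergic list (-0.44, permutation p = 0.0159, adjusted 0.0446, rho = -0.52, permutation p = 0.00356, n = 32) rested on a few libraries. The first was 0.26 without male NAc shell SAL 1 and female NAc shell NIC 5 (permutation p = 0.171) and the second -0.30 without male NAc shell NIC 9 and male NAc shell SAL 3 (permutation p = 0.0726). After centring on prep batch they were 0.57 and -0.42.

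**Figure D5:**
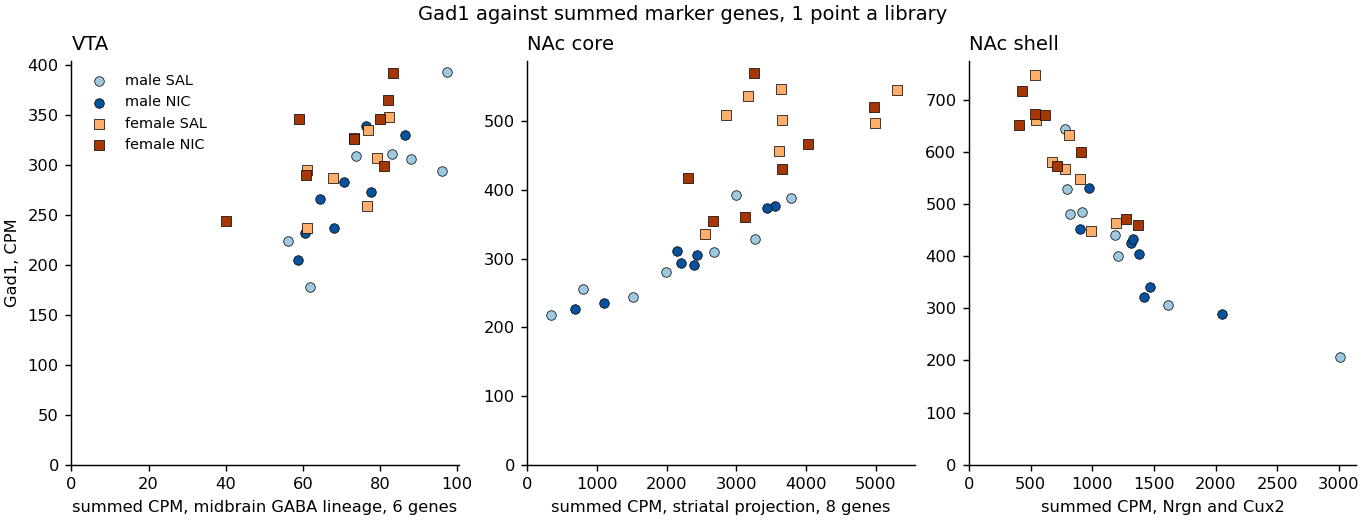
Gad1 in CPM against the summed CPM of a marker list in each library, for the midbrain GABA lineage list in the VTA, the striatal projection list in NAc core and Nrgn with Cux2 in NAc shell, with colours for sex and treatment. The points climb in the first and second panels and descend in the shell, where the within-group r is -0.89.

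Calb1 in the VTA was lower in the rats with more of the GABA lineage list (r = -0.58, rho = -0.60, permutation p = 0.00256 and 0.00107, adjusted 0.0108 and 0.00843, n = 31), the opposite of Gad1, and lower in those with more oligodendrocyte genes (6 of 8 matched, r = -0.60, rho = -0.60, permutation p = 0.00161 and 0.00182, adjusted 0.00922 and 0.0115, n = 31). It went with the striatal projection list there (r = 0.77, rho = 0.72, permutation p = 3.00e-05 and 8.00e-05, adjusted 0.000378 and 0.00101, n = 31), whose sum in the VTA was 211 to 349 CPM. There Ppp1r1b made 44.0% and Drd2, also the autoreceptor of dopaminergic neurons, 32.5% of it, while Drd1 had a mean of 1.54 CPM. In NAc core Calb1 followed the striatal projection list too (r = 0.66, rho = 0.60, permutation p = 0.00045 and 0.00106, adjusted 0.00472 and 0.00843, n = 31). In NAc shell that relation did not pass (r = -0.07, permutation p = 0.569, and 0.12 without the 2 farthest libraries) while Calb1 went with Nrgn and Cux2 (r = 0.52, rho = 0.50, permutation p = 0.00223 and 0.00596, adjusted 0.01003 and 0.0235, n = 32). Calb1 went with Nrgn and Cux2 in the VTA as well (r = 0.55, rho = 0.61, permutation p = 0.00544 and 0.00129, adjusted 0.0190 and 0.00903, n = 31), with r = 0.72 without the 2 farthest libraries and 0.67 after centring on prep batch. The other relations of Calb1 named here as passing kept their sign without the 2 farthest libraries, with r = -0.49, -0.69 and 0.69 for the GABA lineage, oligodendrocyte and striatal lists in the VTA, 0.57 for the striatal list in NAc core and 0.41 for Nrgn and Cux2 in NAc shell. After centring on prep batch the same values were -0.68, -0.72, 0.67, 0.66 and 0.37. The dopaminergic neuron list (7 of 10 matched) showed no relation in the VTA that passed, with r = 0.25 for Gad1, -0.27 for Slc17a6 and 0.25 for Calb1 (permutation p = 0.143, 0.131 and 0.352).

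Slc17a6 in the VTA was higher in rats with more Nrgn and Cux2 (r = 0.52, rho = 0.59, permutation p = 0.00078 and 0.00091, adjusted 0.00646 and 0.00843, n = 31) and lower in those with more astrocyte genes (4 of 6 matched, r = -0.55, rho = -0.46, permutation p = 0.00206 and 0.0149, adjusted 0.00998 and 0.0503, n = 31). In NAc shell it was lower in rats with more Nrgn and Cux2 (r = -0.65, rho = -0.51, permutation p = 0.00082 and 0.00812, adjusted 0.00646 and 0.0301, n = 32). Without the 2 farthest libraries these r of Slc17a6 were 0.42, -0.45 and -0.53, and after centring on prep batch they were 0.60, -0.61 and -0.62. Slc17a6 in NAc shell also had r = 0.45 with the septal, preoptic and hypothalamic list (permutation p = 0.00432, adjusted 0.0170, rho = 0.35, permutation p = 0.0325, n = 32) and r = 0.50 with the oligodendrocyte list (permutation p = 0.00997, adjusted 0.0299, rho = 0.29, permutation p = 0.134, n = 32). Both rested on male NAc shell SAL 1 and 1 other library. Without it and male NAc shell NIC 9 the first r was 0.24 (permutation p = 0.0954), and without it and female NAc shell NIC 5 the second was 0.27 (permutation p = 0.211), although they were 0.47 and 0.60 after centring on prep batch. In NAc core no list passed with Slc17a6 after adjustment.

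The genes most like each member were named as the 3 with the highest r over the same centred values, among the 7455 to 7563 genes with a symbol and at least 1 CPM on average. For Gad1 in the VTA these were Slc32a1 (r = 0.83, 31 libraries), the potassium channel subunit gene Kcns3 (0.81) and Ppp1r1c (0.80). In NAc core they were Prkar2b, a regulatory subunit of protein kinase A (0.92), Ppp1r2 (0.90) and Cdk17 (0.90). In NAc shell they were Ap1s2 (0.97, 32 libraries), Slc32a1 (0.96) and Slc5a7, the choline transporter of cholinergic neurons (0.94). Slc32a1, which loads the GABA that GAD67 makes into vesicles, was thus among the 3 nearest in 2 of the 3 regions. Over all 94 libraries without centring, where region and sex also enter, the nearest were Nts, the neuropeptide neurotensin (0.90), Slc32a1 (0.89) and AABR07060487.1 (0.89).

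For Slc17a6 the nearest genes in the VTA were Cbln2, a secreted synapse organizer (r = 0.85), Tmem163 (0.79) and RGD1308544 (0.78). In NAc core they were the potassium channel gene Kcnd3 (0.81), Spats2l (0.74) and Capza1 (0.73), and in NAc shell Msantd4 (0.82), the growth factor gene Fgf1 (0.81) and Slc35e3 (0.80). Over all 94 libraries, LOC102553190 (0.97), Akap12 (0.96) and Epm2aip1 (0.96) were nearest. Their r were 0.31, 0.39 and 0.48 after centring on region and prep batch, which removes the differences between regions and between batches together. For Calb1 the nearest in the VTA were Morf4l2 (0.87), Cpne7 (0.86) and Wif1, a secreted WNT inhibitor (0.85). In NAc core they were Scamp1 (0.85), Elmod1 (0.81) and the diacylglycerol kinase gene Dgki (0.80), and in NAc shell AABR07026032.3 (0.73), Wdr17 (0.73) and the laminin gene Lamb1 (0.72). Over all libraries Robo2, an axon guidance receptor (0.72), Pik3cd (0.71) and Pam, an enzyme of neuropeptide amidation (0.69), were nearest. No gene was named for more than 1 of the 3 members.

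Other genes of the same pathways were read from 3 lists. Of the list for GABA synthesis, release and uptake, 5 of 8 genes could be matched, Gad1 included. Against NAc core, 3 were higher in the VTA and 1 lower, against 41.3% and 40.3% of all tested genes, with a list median of 0.75 against 0.01 over all genes. The higher ones were on the side of GABA breakdown and uptake. Abat, the GABA transaminase, had a mean of 164 ± 24.0 CPM in the VTA (SD, n = 31) and 65.2 ± 15.4 CPM in NAc core (SD, n = 31), a difference of 1.34 (adjusted p = 7.40e-26). Aldh5a1, the next enzyme of GABA breakdown, differed by 0.75 and Slc6a13, a GABA transporter that is also a marker of meningeal cells, by 1.39. Slc32a1 was at 120.2 ± 26.0 CPM in the VTA and 128 ± 41.9 CPM in NAc core (SD, n = 31 each), and its difference of -0.06 did not pass (adjusted p = 0.541). Against NAc shell, 3 were higher and 2, Gad1 and Slc32a1 (-0.47), were lower in the VTA, against 40.5% and 40.4% of all genes. Between core and shell all 5 were lower in the core, from -0.21 for Aldh5a1 to -0.56 for Slc6a13, against 16.5% of all genes, with a list median of -0.40 against -0.01.

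Of the list for glutamate loading, synthesis and uptake, 7 of 12 genes could be matched. For VTA against NAc core, 4 were higher and 3 lower in the VTA, against 41.3% and 40.3% of all tested genes, with a list median of 0.27 against 0.01. The counts were the same against NAc shell, beside 40.5% and 40.4% of all genes, with a list median of 0.20 against 0.0040. Slc17a6 had by far the largest difference of the 7. Gls2, a glutaminase, was higher in the VTA by 0.36 and 0.66, and Glul, the glutamine synthetase of astrocytes, by 0.30 and 0.20. The glial glutamate transporters Slc1a2 and Slc1a3 were lower in the VTA, by -0.59 and -0.43 against NAc core. The other 3 matched genes of the astrocyte list had higher means in the VTA than in NAc core, with 2204 and 587 CPM for Gfap, 1111 and 401 CPM for Aqp4 and 64.3 and 23.5 CPM for Aldh1l1. Slc17a8, the vesicular glutamate transporter VGLUT3, was lower in the VTA than in NAc core by -0.71 and in NAc shell by -1.06, the reverse of Slc17a6, at means of 2.01 ± 2.43, 2.85 ± 1.21 and 3.56 ± 1.03 CPM (SD, n = 31, 31 and 32). Between core and shell 3 were higher and 1 lower in the core, against 15.8% and 16.5% of all genes.

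Of the list of neuronal EF-hand calcium-binding proteins, 11 of 16 genes could be matched, Calb1 included. For VTA against NAc core, 9, Calb1 among them, were lower and 2 higher in the VTA, against 40.3% and 41.3% of all tested genes, with a list median of -0.84 against 0.01. Hpca, hippocalcin, had the largest difference at -2.97, with medians of 132 CPM in the VTA and 1288 CPM in NAc core, followed by Hpcal4 at -2.05. Pvalb, parvalbumin of fast-spiking neurons, was higher in the VTA by 1.59, with medians of 189 and 57.8 CPM, and Vsnl1 by 0.17. Against NAc shell 7 were lower and 1, Pvalb, was higher, against 40.4% and 40.5% of all genes, with a list median of -0.47 against 0.0040, and Calb1 was among the 3 that did not pass. Between core and shell 6 were higher and 1 lower in the core, against 15.8% and 16.5% of all genes, and Cabp1, a calmodulin-like protein, at 0.95 was close to Calb1 at 0.92.

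Between the sexes, no gene of the 3 lists passed in the VTA, where 0.824% of all genes were higher and 1.5% lower in males. In NAc core 4 of 5 GABA genes were lower in males, against 17.5% of all genes, with a list median of -0.33 against -0.01, and in NAc shell 2 of 5, Gad1 and Slc32a1, were lower, against 10.1%. Of the EF-hand genes, 6 of 11 were higher and 4 lower in males in NAc core, against 15.5% and 17.5% of all genes, and 4, namely Calb1, Cabp1 (0.73), Hpcal4 (0.35) and Ncs1 (0.12), were higher in NAc shell, against 10.9%. Of the glutamate genes 2 of 7 passed in NAc core, Gls2 higher in males at 0.27 and Slc17a8 lower at -0.78, and in NAc shell Slc17a6 alone. For the difference of region differences between the sexes, the GABA list had 1 gene for VTA against NAc core, Gad1, and 1 for VTA against NAc shell, Aldh5a1 at 0.27 (adjusted p = 0.0424). The EF-hand list had 3, 4 and 2 of 11 genes for VTA against core, VTA against shell and core against shell, where 11.3%, 6.71% and 0.397% of all genes passed, among them Cabp1 at -0.60 and -0.78 for the VTA against core and shell, and Vsnl1 at -0.66 for VTA against core and 0.58 for core against shell. Without the libraries that stand apart, Hpca and Calb1 no longer passed between the sexes in NAc core, nor Ncs1 in NAc shell. The same held for the sex differences of Cabp1 in VTA against core (-0.50) and of Aldh5a1 (0.22) and Hpca (-0.47) in VTA against shell, while Ncald passed in core against shell (0.43).

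No list gene passed after adjustment for NIC against SAL with edgeR's quasi-likelihood test. At the unadjusted threshold, besides Slc17a6, the glutamate list had Slc17a8 in male VTA at -1.60 (unadjusted p = 0.00464) and Slc1a2 in male VTA at -0.33 (unadjusted p = 0.00981). Slc17a8 was near the floor in the VTA, at 0.246 to 10.9 CPM with a median of 1.09 CPM over both sexes (n = 31). Slc1a2, the main transporter that clears synaptic glutamate, was at 0.26 in female VTA (unadjusted p = 0.00692), and its interaction of sex and treatment was -0.60 (unadjusted p = 0.000212, adjusted p = 0.350). Slc1a6 in female VTA was at 0.35 and Glul in female NAc core at 0.17. The GABA list had Slc6a13 in male NAc core at 0.52 and in female NAc shell at -0.40. The sum of the meningeal fibroblast list (5 of 5 matched), which includes Slc6a13, moved the same way, from a median of 199 CPM after SAL to 255 CPM after NIC in male NAc core and from 256 to 221 CPM in female NAc shell, and the part of meningeal tissue was not tested. The EF-hand list had Hpca in female VTA at 1.103, which rested on female VTA NIC 2, a library that stands apart, at 1437 CPM against 83.3 to 272 CPM in the other 15 libraries of the comparison, and was 0.12 (unadjusted p = 0.656) without it. It also had 4 genes in female NAc shell, where Vsnl1 was at 0.26, Hpca at -0.35, Caln1 at -0.35 and Necab2 at -0.23. With Slc17a6 these are 14 of 138 values over the 23 genes of the 3 lists and the 6 comparisons, beside 2.46% to 10.1% of all genes. Without the libraries that stand apart, some list genes passed in male NAc shell that did not before. They were Slc32a1 at -0.44, Abat at -0.45, Aldh5a1 at -0.22 and Vsnl1 at 0.28 (unadjusted p = 0.0216, 0.0383, 0.0263 and 0.0202). The share of all genes that passed in that refit is not given here, and the 2.46% of male NAc shell belongs to the fit that kept those libraries.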

How the data were processed

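The authors trimmed paired-end reads with fastp 0.20.0 and quantified them with Salmon 0.12.0 on Rnor version 6, per the labels and the methods, and summarized transcripts to genes with tximport. The deposited table holds read counts per gene as whole numbers for 96 libraries. Of these, 94 were used, 1 per rat and region. The library labelled R1 of male VTA SAL 5, whose library R2 was used, and the library of female NAc core NIC 1, neither of which the study shows, were left out. Only the fits with all mapped libraries put them back.

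The 16879 genes whose normalized count exceeded 10 in 3 or more libraries were tested with edgeR 4.0.16 quasi-likelihood fits on TMM factors (R 4.3.3) and Benjamini-Hochberg adjustment over all of them. NIC was tested within sex and region without covariates, since the study's methods name none. CPM of the 94 libraries are counts divided by the library total after that total was multiplied by its TMM factor. Scripts were tested on simulated data. Rats are separate animals by the labels, so p-values of tests within a region measure the spread between rats. In the main fits across regions, libraries of the same rat entered as separate units. Those p-values measure the spread between libraries and leave out the pairing.

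Symbols came from tables given with the study, which name 7926 of the 17637 identifiers. Named genes were the members, the genes of 3 pathway lists and of marker lists, and for each member the 3 nearest genes. Members and lists were chosen with earlier results of these data known. Samples of different regions were tied to a rat by the first number and the box in their titles. Deviations from group means correlated with a median r of 0.152 between core and shell of the same rat against -0.016 between different rats of a group, and of 0.0437 between VTA and core and 0.0576 between VTA and shell, so the rat was also fitted as a block.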

Additional observations from a re-analysis of the deposited data

Results flagged for a closer look

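Of the 36 combinations of gene and group examined for a library far from the rest of its group, 3 had one, where chance gives about 1 in 20. Gad1 was at 336 CPM in female NAc core SAL 16, with the next library at 457 CPM. Slc17a6 was at 14.3 CPM in female NAc shell SAL 9, with the next at 9.80 CPM, and Calb1 was at 171 CPM in female NAc core NIC 8, with the next at 129 CPM.

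The effect of NIC on Slc17a6 in NAc shell differed between males and females by -0.85 on the log2 scale at an unadjusted p of 0.0147 in edgeR's quasi-likelihood test (adjusted p = 0.579). The region differences that differed between males and females, with p-values adjusted over all genes in the same test, were 0.47 for Gad1 in VTA against NAc core, -0.64 for Calb1 in VTA against NAc shell and -0.88 for Calb1 in NAc core against NAc shell.

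The left-out library of female NAc core NIC 1 held 85.2 CPM of Slc17a6, above the 4.62 to 16.7 CPM of the other 7 libraries of that group. Its gene counts differed less from the VTA library of the same rat (chi-square per degree of freedom of 10.2) than from the NAc shell library of that rat (134) or from the NAc core libraries of its group (161 to 230). In the 30 rats with both regions, VTA and NAc core differed by 83.6 to 258, and the 2 libraries made from male VTA SAL 5 by 3.05. The library labelled female NAc core NIC 1 was used only in the fits with all mapped libraries.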

How the results depend on the processing

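The regional differences of Slc17a6 against the VTA, of Calb1 against NAc core and of Gad1 against NAc shell kept their direction and passed under every setting tried (TMM, DESeq2 size factors and test, totals, filters, all mapped libraries, without the libraries that stand apart, 1 sex or SAL alone, rat as a replicate block). With the rat as a replicate block the differences were -0.36, 3.88 and -0.86 for Gad1, Slc17a6 and Calb1 in VTA against NAc core, -0.75, 3.59 and 0.05 against NAc shell and -0.39, -0.29 and 0.91 for core against shell, with no call changed. For the sex difference of Gad1 in VTA against NAc shell the block gave 0.34, now past the threshold. In males alone Gad1 in VTA against NAc core was -0.12 and did not pass. Calb1 in VTA against NAc shell was -0.033 in SAL groups, -0.25 in males and 0.41 in females, of which the last passed. Slc17a6 in core against shell passed with totals (-0.35), with at least 10 normalized counts in every library (-0.30), without the libraries that stand apart (-0.31) and in females (-0.59), and was 0.033 in SAL groups.

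With prep batch as a covariate the NIC differences were -0.46 for Gad1 in male VTA, -0.67 for Gad1 and -0.48 for Calb1 in male NAc shell (all now passing unadjusted), -0.56 for Slc17a6 in male NAc core, -0.60 in female NAc core and 0.51 in female NAc shell, and -0.19 for Gad1 in female NAc shell. The interactions of Slc17a6 were 0.19, 0.046 and -0.44 for VTA, core and shell, that of Calb1 in NAc shell -0.87 (passing), and males minus females 0.20 for Gad1 in VTA and, in NAc shell, -0.32, -0.25 and 0.99 for Gad1, Slc17a6 and Calb1. Calb1 in male VTA passed with DESeq2 (0.40) and in 1 fit of 12 groups (0.40), where Slc17a6 in male NAc core did not (-0.43). Totals gave 0.025 for Gad1 in male NAc core and -0.0037 for Calb1 in female VTA, which was -0.0016 without a filter. With all mapped libraries Slc17a6 and Calb1 in female NAc core were 1.22 (passing) and -0.10, and the core interaction of Slc17a6 -1.65 (passing), as it did at -0.74 without the libraries that stand apart. Every fit with all mapped libraries that covers female NAc core puts back the left-out library of NIC 1. That library held 85.2 CPM of Slc17a6, against 4.62 to 16.7 CPM in the other 7 of its group. Without it the Slc17a6 difference in female NAc core was 0.22.

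Calb1 between the sexes in NAc core did not pass with DESeq2 size factors, DESeq2's test or no filter (-0.27 each), with all mapped libraries (-0.21) or without the libraries that stand apart (-0.23). Without the 4 libraries with Avp over 2 CPM, chosen after seeing the data, NIC differences in female NAc shell were -0.14 for Gad1 and 0.13 for Slc17a6, interactions 0.0079 and 0.015, Slc17a6 between the sexes -0.35, and the sex differences of Calb1 -0.53 and -0.78. With all mapped libraries those were -0.64 and -0.81, and did not pass. Relations of Slc17a6 in NAc core with Gad1 and Calb1 were -0.026 and -0.030 without the libraries that stand apart. Causes were not tested.

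Leaving out 1 library at a time, NIC differences ran from -0.17 to 0.0013 for Gad1, from -0.028 to 0.20 for Slc17a6 and from 0.30 to 0.55 for Calb1 in male VTA, where Calb1 passed without NIC 11, SAL 4 or SAL 5. They ran from -0.061 to 0.059 for Gad1 in male NAc core, -0.10 to 0.12 for Calb1 in female VTA, and in female NAc core from -0.21 to -0.092 for Gad1, which passed without SAL 16, and -0.041 to 0.10 for Calb1. Values that did not pass moved too, from 0.018 to 0.34 for Slc17a6 in female NAc core, -0.23 to -0.028 for Gad1 in male NAc shell, -0.26 to -0.059 for Calb1 in male NAc core and 0.034 to 0.21 for Calb1 in female NAc shell. Both Slc17a6 calls held with any 1 library left out, from -0.52 to -0.35 in male NAc core and from 0.86 to 1.11 in female NAc shell. In female NAc shell the 4 libraries with Avp over 2 CPM were all high, so leaving out 1 cannot show whether the call depends on them. Neither call passed with prep batch as a covariate. The counts of list genes called between regions moved by less than 1.5 times in 54 of 54 cases (no count filter, rat as a replicate block, DESeq2's test), and of 39 repeats of the nearest genes 20 shared fewer than 2 of 3.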
